A study of Mus musculus with 8 samples.

Results

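RAW264.7 mouse macrophages exposed to serotonin were compared with RAW264.7 macrophages without it, on 4 of the 8 arrays of the series, 2 with serotonin and 2 without. The 4 RAW264.7 arrays were identified by their labels. RAW264.7 is a macrophage-like line of BALB/c mouse origin, and 3T3-L1 is a mouse fibroblast line that can be differentiated into fat cells. Per the methods, RNA was taken from the lower well. For the macrophages, RAW264.7 grew in that well and 3T3-L1 pre-adipocytes in an insert with a porous membrane above. Secreted factors thus passed between the lines and cells did not. The untreated co-culture received no hormone, the serotonin co-culture 100 µM serotonin, the cortisol co-culture 100 µM cortisol, and the cortisol-serotonin co-culture 100 µM of each, all for 48 h. RNA of both lines was hybridised, and the other 4 arrays hold the 3T3-L1 cells. Those came from a separate set-up, with 3T3-L1 in the lower well and macrophages in the insert. Every condition was 1 array per line, with the sample in Cy5 and a common RNA reference in Cy3. The value used throughout is the log2 ratio of sample over reference. The first comparison was serotonin minus untreated and the second was cortisol-serotonin minus cortisol. These share no array. They differ in hormone background and each sets 1 array against 1, so neither is a replicate of the other.

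Serotonin is a monoamine that most people know from the brain, although most of the body's supply is made by enterochromaffin cells of the gut and carried by platelets. Macrophages meet it at sites of inflammation, where it acts through G-protein-coupled receptors and an ion channel of the HTR families, is taken up by the transporter Slc6a4, and is degraded by monoamine oxidase. Serotonin can also be attached to proteins by the transglutaminase Tgm2. Cortisol acts through the glucocorticoid receptor, a transcription factor that induces genes such as Tsc22d3 (GILZ), Fkbp5 and Dusp1 and represses many cytokine and chemokine genes.

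The 4 arrays held 43020 non-control spots each, and between 43.71% and 46.01% of them were well above background in both channels. No spot was saturated. The median Cy5 signal was 103 on the serotonin array against 58 on the untreated, 51 on the cortisol and 61 on the cortisol-serotonin array, over a background near 28. After loess normalisation the log2 ratios of the untreated and cortisol arrays correlated at 0.986 over probes, and those of the serotonin and cortisol-serotonin arrays at 0.949, the lowest of the RAW264.7 pairs. Each treatment also sat at the same place on the slide in both lines, so place and treatment cannot be told apart. Macrophage identity was checked with 19 markers, of which 15 were measured; Csf1r had log2 ratios of 1.96, 1.99, 1.85 and 1.58 and Adgre1 of 1.39, 1.04, 1.14 and 1.05 on the untreated, serotonin, cortisol and cortisol-serotonin arrays.

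The glucocorticoid response genes went against the cortisol label, and this has to be known before any direction is read. Of 33 listed genes 23 were measured, and on the cortisol array 8 of the 23 were higher than on the untreated array, with a median difference of -0.162. Of all 12064 genes measured, 6853 were higher on the cortisol array, with a median difference of 0.0221. On the cortisol-serotonin array, which holds cortisol under either reading of the labels, 11 of the 23 were higher than on the untreated array, with a median of -0.0473. Over all genes the mean log2 ratio was -0.0944 on the untreated and -0.0986 on the cortisol-serotonin array. The share of all genes that were higher was not counted for this pair. Single members of the list stood out. Tsc22d3 had log2 ratios of -0.58 on the untreated, 0.05 on the serotonin, -0.86 on the cortisol and -0.06 on the cortisol-serotonin array. Dusp1, a phosphatase that shuts off MAP kinases, stood at -0.27, 0.09, -0.85 and -0.11 on the same arrays. These genes were highest on both arrays labelled with serotonin and lowest on the array labelled cortisol alone. Other members went the other way. Klf4 and Lpin1 were highest on the cortisol array, at -3.96 and 1.24, against -4.34 and 0.83 on the untreated array. Of the 23, 19 were also measured in 3T3-L1. There, 14 were higher than untreated on the serotonin array, 8 on the cortisol and 13 on the cortisol-serotonin array. The median differences were 0.388, -0.0558 and 0.422, and the share of all genes was not counted in that line. Fkbp5 in 3T3-L1 had log2 ratios of -0.85 on the untreated, 0.47 on the serotonin, -0.71 on the cortisol and 0.60 on the cortisol-serotonin array. Klf9 instead rose from 0.65 on the untreated to 1.21 on the cortisol array, and Nfkbia was highest on the cortisol array. Whether the serotonin and cortisol samples were exchanged was not tested. If they were, both comparisons would measure cortisol. The arrays go by their labels in what follows, and a "serotonin" difference means a difference between arrays so labelled.

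Over 12064 genes with a probe that exceeded background in Cy5 and in Cy3 on each of the 4 arrays, the comparisons shared few large differences. Serotonin minus untreated had 63 genes at least 2-fold higher (0.522% of those measured) and 29 at least 2-fold lower (0.24%). Cortisol-serotonin minus cortisol had 21 higher (0.174%) and 7 lower (0.058%). At least 2-fold in both, 5 genes were higher (0.0414%) and 1 was lower (0.00829%). At the looser limit of 1.5-fold in both, 26 were higher (0.216%) and 19 lower (0.157%). By any amount, 41.5% of the genes were higher in the first comparison and 44.7% in the second. The share of higher among all 2-fold differences depended on the scaling: in the first comparison it was 68.5% with loess, 33.8% with the scanner software's own processed signals (118 higher, 231 lower) and 27.8% with the Cy5 channel alone (269 higher, 699 lower). In the second it was 75% with loess and 63.6% with median centring (21 higher, 12 lower).

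**Figure D1:**
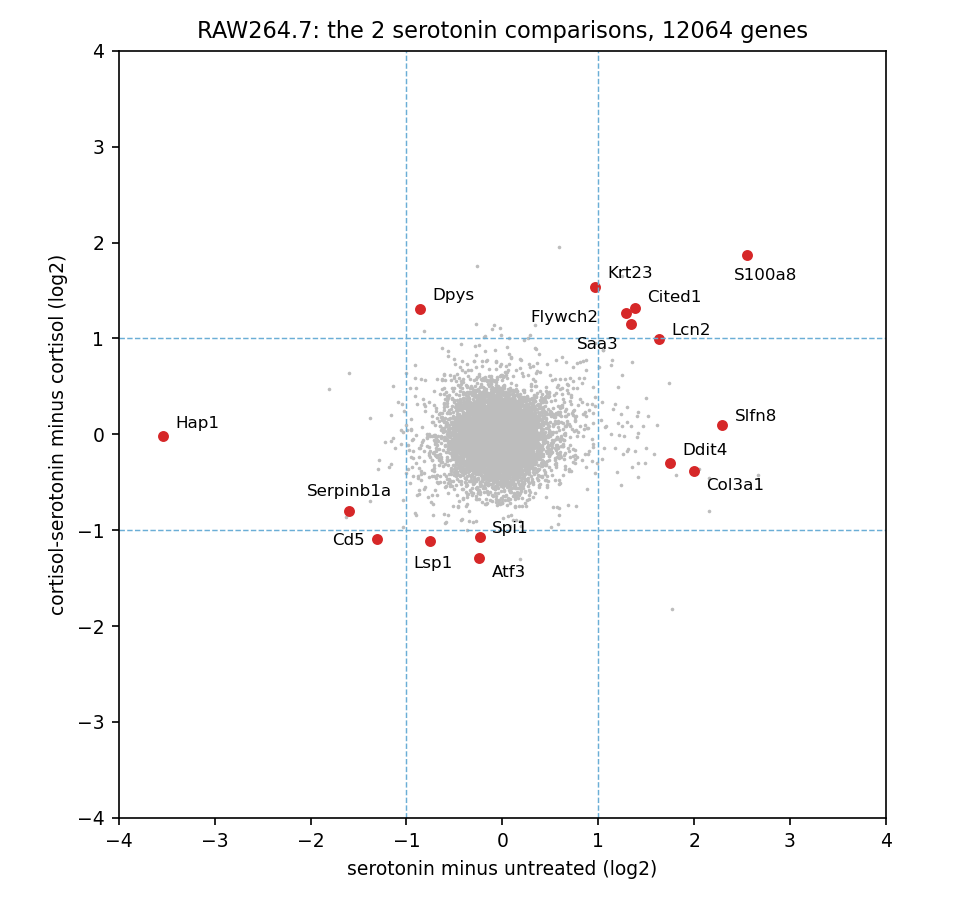
Each grey point is 1 of the 12064 measured genes, with its log2 difference between the serotonin and untreated arrays on the x axis and between the cortisol-serotonin and cortisol arrays on the y axis; dashed lines mark 2-fold and named genes are in red. S100a8, at 2.55 and 1.87, lies apart in the upper right, while Hap1, at -3.54 and -0.02, is far from 0 in the first comparison alone.

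Over all genes the differences of the comparisons correlated at Pearson's r = 0.068 and Spearman's rho = 0.0428, as a description across 12064 genes that are not independent replicates. The SD over genes was 0.261 in the first comparison and 0.232 in the second, against 0.164 for the cortisol array minus the untreated array. A shared direction was found for 52.6% of the genes. The sign of r was not stable, at -0.105 with the Cy5 channel alone. In bulk RNA such as this, fewer cells expressing a gene and less RNA per cell cannot be told apart.

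With limma, which fitted cell line, cortisol and serotonin within each line on the arrays of both lines and so shared one estimate of the spread, no gene passed a Benjamini-Hochberg adjusted p of 0.05 (0% of 12064). At an unadjusted p under 0.05 there were 457 genes (3.79%), 176 higher and 281 lower. An exact permutation test of 2 arrays against 2 cannot go below p = 0.333. The model held no interaction of the hormones, so within a line its spread was how far the 2 comparisons disagreed. The limma p-values thus count any interaction as spread, and nothing in the labels makes the arrays repeat cultures. The smallest adjusted p was 0.157, for S100a8. Without the cortisol or without the cortisol-serotonin array, which leaves the first comparison alone with its error taken from the 3T3-L1 arrays, 55 genes passed, and without the untreated or without the serotonin array 7 passed. Leaving out the cortisol or the cortisol-serotonin array gives the same fit, and so does leaving out the untreated or the serotonin array. These are thus 2 distinct fits, each of 1 RAW264.7 array against 1, and their passes are no separate support. The S100a8 effect was 2.55 in the first and 1.87 in the second, and that of Hap1 was -3.54 and -0.02.

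S100a8, which encodes a calcium-binding subunit of calprotectin secreted by neutrophils and activated macrophages, had the largest difference shared by both comparisons. Its log2 ratio was -0.83 on the untreated array, 1.72 on the serotonin array, -0.64 on the cortisol array and 1.23 on the cortisol-serotonin array. The arrays fell into separate pairs, high with serotonin and low without. The difference was 2.55 ± 0.35 in the first comparison, or 5.86-fold, and 1.87 ± 0.32 in the second, or 3.67-fold, where ± is the error that the scanner software assigns to the log ratios of the arrays involved. The limma effect was 2.21 (SE 0.21, adjusted p = 0.157). In 3T3-L1 the same comparisons gave 0.31 and -0.20. The mean log2 ratio of S100a8 over the 4 arrays of a line was 3.04 in 3T3-L1 and 0.37 in RAW264.7, and the part of 3T3-L1 RNA in its difference was not tested.

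Saa3 and Lcn2, which also encode secreted proteins of the innate and acute-phase response, were likewise higher on both arrays labelled with serotonin than on both without it. Saa3, the serum amyloid A of macrophages and fat tissue, had log2 ratios of -6.15 on the untreated, -4.80 on the serotonin, -6.12 on the cortisol and -4.97 on the cortisol-serotonin array. Its differences were 1.35 ± 0.80 and 1.15 ± 0.81. Lcn2, the siderophore-binding lipocalin, had log2 ratios of -2.59, -0.96, -2.75 and -1.76 in that order of arrays. Its differences were 1.63 ± 0.39 and 1.00 ± 0.43, the second just under the 2-fold line at 1.995-fold. Neither gene passed limma (adjusted p = 0.338 for Saa3 and 0.435 for Lcn2), and both were fitted on the RAW264.7 arrays alone. The level of Saa3 was far below the reference on every array, and its error there was large.

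The promoters of these 3 genes are shown because the genes were higher together on both arrays labelled with serotonin and because the question of a cortisol response stands beside them. Each run covers 250 bases before to 50 bases after the RefSeq start of transcription on GRCm38.p6. Capitals mark matches, on either strand, to the paired glucocorticoid receptor half-sites ACANNNTGT, or to the C/EBP element TTGCNNAA. The NF-kB element was searched as well.
S100a8, chr3:90668821-90669120, + strand: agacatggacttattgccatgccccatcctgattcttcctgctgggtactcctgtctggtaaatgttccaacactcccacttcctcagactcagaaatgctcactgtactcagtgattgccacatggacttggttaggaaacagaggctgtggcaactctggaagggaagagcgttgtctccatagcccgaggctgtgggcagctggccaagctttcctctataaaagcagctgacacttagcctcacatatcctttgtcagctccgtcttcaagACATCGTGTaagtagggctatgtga
Saa3, chr7:46715627-46715926, - strand: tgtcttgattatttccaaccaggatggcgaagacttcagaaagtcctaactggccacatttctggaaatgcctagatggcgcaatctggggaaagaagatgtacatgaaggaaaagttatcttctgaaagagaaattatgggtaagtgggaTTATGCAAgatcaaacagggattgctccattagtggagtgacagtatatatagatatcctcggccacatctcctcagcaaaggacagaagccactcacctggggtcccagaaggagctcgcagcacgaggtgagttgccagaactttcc
Lcn2, chr2:32387690-32387989, - strand: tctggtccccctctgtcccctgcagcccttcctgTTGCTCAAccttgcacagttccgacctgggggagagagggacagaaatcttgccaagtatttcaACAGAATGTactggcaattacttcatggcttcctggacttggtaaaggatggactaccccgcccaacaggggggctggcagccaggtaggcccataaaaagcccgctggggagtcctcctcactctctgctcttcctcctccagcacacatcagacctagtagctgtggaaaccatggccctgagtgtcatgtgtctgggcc

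S100a8 held 1 match to the half-site pair (ACATCGTGT, starting at position 26 after the start of transcription), Saa3 held 1 to the C/EBP element (TTATGCAA, at position -99), and Lcn2 held 1 to each of these (TTGCTCAA at -216 and ACAGAATGT at -152). The NF-kB letters were in none of the 3 windows. Of 32851 promoters of the same 300 bases, 6.85% held the half-site pair, 10.8% the C/EBP letters and 20.7% the NF-kB letters. A match of letters is not a measured site.

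Cited1 and Flywch2 completed the named genes that were at least 2-fold higher in both comparisons. Cited1, a transcriptional coactivator that binds CBP and p300, had log2 ratios of 0.88 on the untreated and 0.90 on the cortisol array against 2.26 on the serotonin and 2.22 on the cortisol-serotonin array. The arrays within each pair were almost level, while the pairs differed by 1.38 ± 0.39 and 1.32 ± 0.39. Flywch2 had log2 ratios of -3.38 and -3.40 without serotonin and -2.09 and -2.14 with it, or differences of 1.29 ± 0.52 and 1.26 ± 0.60. Its mean effect of 1.27 was 0.24 with the Cy5 channel alone. The adjusted p was 0.283 for Cited1 and 0.435 for Flywch2 by limma. The remaining 2-fold higher feature was a probe with no gene name.

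The lower side held 1 gene at 2-fold in both comparisons, Cd5, a scavenger receptor family protein best known on T cells and some B cells. Its log2 ratio was 1.25 on the untreated and 1.58 on the cortisol array, against -0.05 on the serotonin and 0.49 on the cortisol-serotonin array. The groups did not overlap, and the differences were -1.30 ± 0.32 and -1.09 ± 0.34 (limma adjusted p = 0.351). Spink5, a serine protease inhibitor, stood at 1.33 on the untreated, 0.30 on the serotonin, 1.63 on the cortisol and 0.67 on the cortisol-serotonin array, differences of -1.03 and -0.96. Serpinb1a, an inhibitor of neutrophil elastase, stood at -1.28, -2.88, -1.31 and -2.10 in that order, differences of -1.60 and -0.80. Lsp1, a leukocyte protein that binds actin, stood at 0.44, -0.32, 0.21 and -0.91, differences of -0.76 and -1.11. In 3T3-L1 Spink5, Serpinb1a and Lsp1 were also lower in both comparisons, by 0.54 to 0.70 on the log2 scale.

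**Figure D2:**
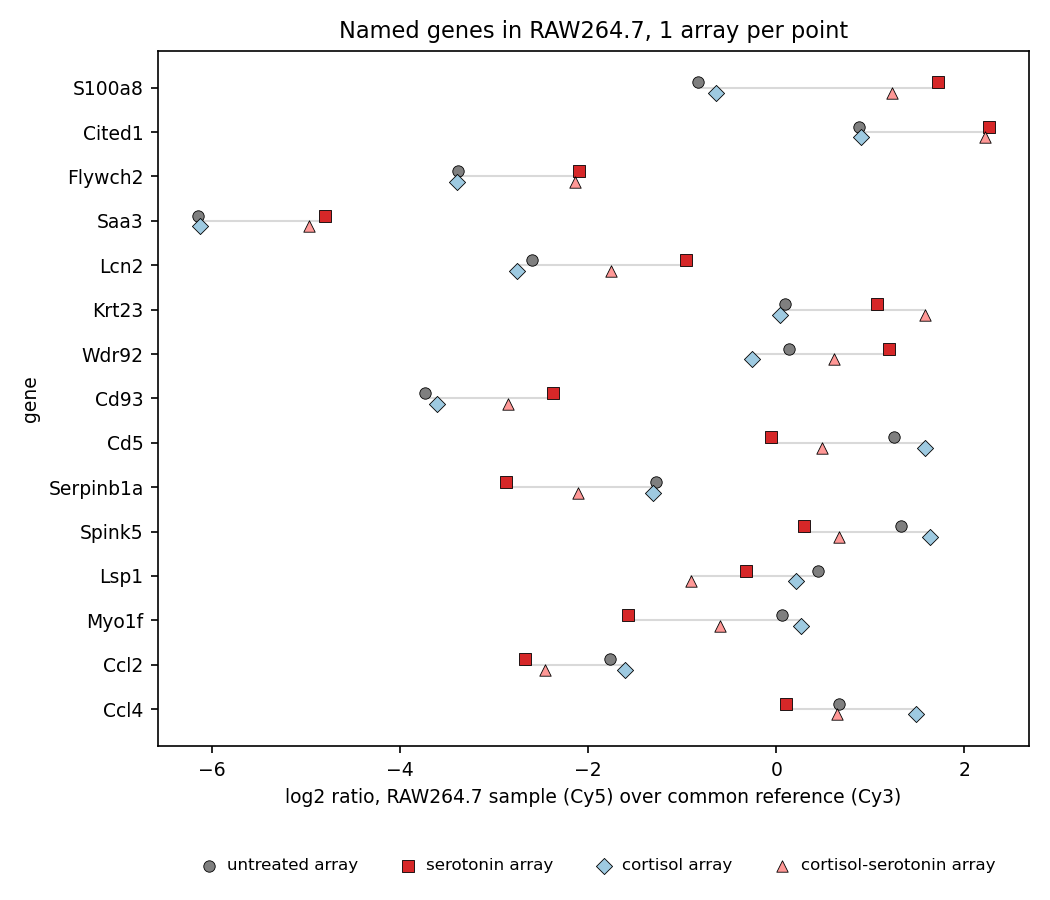
Log2 ratio of sample over reference (x axis) for 15 genes (y axis), 1 point per RAW264.7 array, with squares and triangles for the arrays labelled with serotonin and circles and diamonds for those without. For Cited1 the arrays within a pair nearly coincide and the pairs differ by 1.38 and 1.32, while for Myo1f the serotonin array, at -1.57, stands apart from the cortisol-serotonin array, at -0.59.

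The remaining genes among the 10 with the smallest p in each direction were smaller or less certain. Among those higher, Krt23, a keratin, was at 0.10 and 0.04 without serotonin and at 1.06 and 1.57 with it. Wdr92 was at 0.14 and -0.26 without serotonin and at 1.19 and 0.62 with it. Cd93, a C-type lectin-like receptor of myeloid and endothelial cells, was at -3.73 and -3.60 without and at -2.38 and -2.85 with serotonin. Fstl1 and Tns2 differed by 0.96 and 0.95 and by 0.87 and 0.77, and for Fstl1 the scanner software's error of 1.20 and 1.17 was larger than either difference. The effect of Tns2 was -0.16 with the Cy5 channel alone. Among those lower, Myo1f, an unconventional myosin of immune cells, was measured by a pair of probes that disagreed in the first comparison, at -2.42 and -0.85, and lay at -0.78 and -0.93 in the second. Plet1, Marchf11, Cadps, Hacd4 and Ltb, the lymphotoxin beta gene, had mean differences between -0.87 and -0.68. The smallest adjusted p of these by limma was 0.351, for Wdr92. For all of these 20 genes, the 10 with the smallest p in each direction, the arrays with and without serotonin did not overlap, against 13% of all genes with both serotonin arrays higher and 23.6% with both lower; since these genes were picked by p, that says nothing more about them.

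Most of the 2-fold differences appeared in a single comparison. Below, "alone" means that the other comparison was under 1.5-fold in the same direction, or opposed. Hap1, huntingtin-associated protein 1, had the largest, with log2 ratios of 2.02 on the untreated, -1.52 on the serotonin, 1.80 on the cortisol and 1.78 on the cortisol-serotonin array. The serotonin array alone was low, by 11.6-fold against the untreated array, and the second comparison gave -0.02. With a filter on Cy5 alone, and with no filter on dim probes, the first difference was -1.84. The main value rests on 1 probe, and those settings averaged it with at least 1 other probe of the gene, which differed from it. Slfn8 (2.29 and 0.09), Fgfr1 (2.15 and -0.80), Plcd1 (2.15 and -0.45), C1s2 (2.05 and -0.36) and Col3a1 (-4.82 on the serotonin against -6.82 on the untreated array) were higher in the first comparison alone. Of these, Fgfr1, Plcd1 and Col3a1 were lower on the serotonin array when the Cy5 channel was used by itself (-0.24, -0.26 and -0.56). Pigt (-1.60 and 0.63), Cnr2, the peripheral cannabinoid receptor (-1.38 and 0.17), Icam2 (-1.28 and -0.27) and Defa32 (-1.23 and -0.08) were lower in the first comparison alone. With no filter on dim probes the first difference was 1.09 for Slfn8, 1.01 for Fgfr1, 1.15 for C1s2 and -0.37 for Defa32. Those of Plcd1, Col3a1, Pigt, Cnr2 and Icam2 did not move. Both serotonin arrays were lower than both others for Hap1 and Icam2, and higher for Slfn8.

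In the second comparison alone, Dpys (-0.86 and 1.31), Dusp2, a MAP kinase phosphatase (-0.27 and 1.15), Fabp4, a fatty acid carrier of fat cells and macrophages (0.34 and 1.14), Ifi209 (-0.02 and 1.11) and Zfp566 (-0.11 and 1.09) were higher. For all of these but Zfp566 the cortisol array was the lowest of the 4. Dpys was at 0.59 on the untreated array, -0.91 on the cortisol array and 0.40 on the cortisol-serotonin array, so that the first and last nearly coincide. Fabp4 was likewise at 2.60 on the untreated, 1.72 on the cortisol and 2.86 on the cortisol-serotonin array. Lower in the second comparison alone were P4ha2, a collagen prolyl hydroxylase (0.19 and -1.42), and the stress transcription factor Atf3 (-0.24 and -1.29). Spi1, which encodes the macrophage transcription factor PU.1 (-0.24 and -1.07), Kif21b (-0.37 and -0.997) and Mcidas (0.20 and -0.95) were lower there too. Even so, both serotonin arrays were lower than both others for Atf3, Spi1 and Kif21b, and higher for Fabp4. With the Cy5 channel by itself the second comparison turned for Dpys (-0.61) and Mcidas (1.03). Atf3 was at -2.15, -2.38 and -2.42 on the untreated, serotonin and cortisol-serotonin arrays and at -1.14 on the cortisol array. For Spi1 the cortisol-serotonin array, at 0.30, was the one that stood apart from 1.51, 1.28 and 1.37.

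The machinery of serotonin itself was hardly visible. Of 28 genes listed for its receptors, synthesis and clearance 27 were on the array, and 3 were measured: Aldh2, which oxidises the aldehyde that monoamine oxidase forms (-0.20 and -0.32), Aanat, an enzyme of melatonin synthesis (-0.04 and -0.09), and Tgm2 (-0.12 and 0.10). None of the 3 was at 2-fold in either comparison. All 14 receptor genes were on the array; 10 were below the Cy5 background on every RAW264.7 array and none was above it on all 4. Htr2a was above it on 2 arrays and Htr2c, Htr3b and Htr4 on 1. The transporter gene Slc6a4 was above the Cy5 background on 3 arrays. Below background is a limit of the signal and does not show that a receptor was absent.

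Of the glucocorticoid response genes, 13 of the 23 measured were higher in both serotonin comparisons (56.5%, against 19.4% of all genes) and 5 were lower in both (21.7%, against 33.2%). Their median difference was 0.0973 in the first comparison and 0.102 in the second, where all genes had medians of -0.0381 and -0.0239. Unadjusted p under 0.05 was reached by 7 that were higher and 2 that were lower (1.46% and 2.33% of all genes). The list holds Saa3 and Lcn2 too, and was written with earlier results of these data known. Mt2, a metallothionein that binds zinc, had log2 ratios of 0.54 on the untreated, 1.55 on the serotonin, 0.08 on the cortisol and 0.78 on the cortisol-serotonin array, differences of 1.01 and 0.70. Mt1 differed by 0.39 and 0.45. Tsc22d3, whose array values are given above, differed by 0.63 and 0.81, Dusp1 by 0.36 and 0.74, the kinase gene Sgk1 by 0.49 and 0.43, and Fkbp5, a chaperone of the glucocorticoid receptor, by 0.33 and 0.19.

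Other members of that list lay near 0, differed in sign between the comparisons or were lower in both. The clock gene Per1 differed by 0.05 and 0.09 and Klf9 by -0.13 and -0.04. Ddit4, an inhibitor of mTORC1, differed by 1.74 and -0.30, and Lpin1, a phosphatidate phosphatase, by -0.18 and -0.73. Anxa1, a mediator of glucocorticoid action on leukocytes, was lower in both, at -0.30 and -0.45. Klf4, Cebpd, Glul, Slc19a2, Ampd3, Errfi1, Nfkbia, Angptl4, Pik3ip1 and Tgm2 had mean differences between -0.27 and 0.16. With median centring, which placed the median of all genes at -0.175 in the first comparison, the median of the list over both comparisons was -0.0271 against 0.0997 with loess. With both hormones against serotonin alone, 4 of the 23 were higher on the cortisol-serotonin than on the serotonin array, with a median of -0.167. Over all genes the mean log2 ratio was -0.0986 on the cortisol-serotonin and -0.132 on the serotonin array. The share of all genes that were higher was not counted for this pair either.

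**Figure D3:**
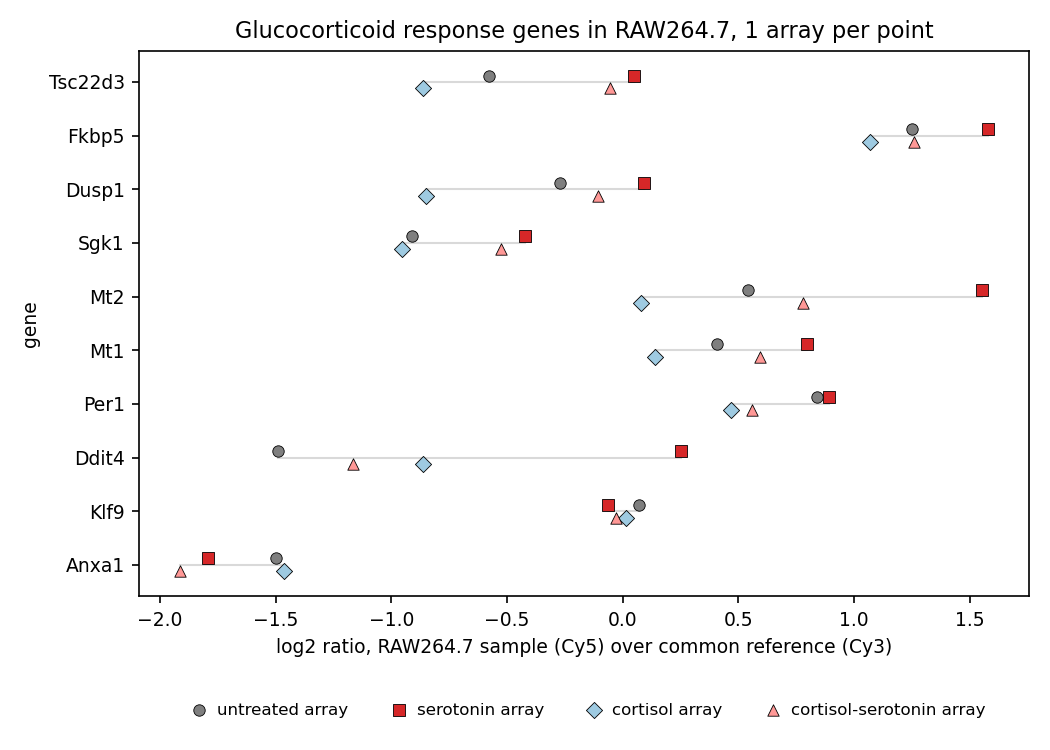
Log2 ratio of sample over reference (x axis) for 10 glucocorticoid response genes (y axis), 1 point per RAW264.7 array. For Tsc22d3, Fkbp5, Dusp1, Sgk1, Mt2 and Mt1 the diamond of the cortisol array is the lowest point and the square of the serotonin array the highest.

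Fibroblast and pre-adipocyte markers, the genes of the other line of the co-culture, were higher together on the serotonin array. Of 25 listed, 11 were measured; all 11 were higher in the first comparison, with a median of 0.545, and 10 in the second, with a median of 0.351. Of all genes, 41.5% were higher in the first comparison and 44.7% in the second. Unadjusted p under 0.05 was reached by 8 of the 11, against 1.46% of all genes that were higher at that limit. Their mean log2 ratio was -5.13, -4.39, -4.98 and -4.67 on the untreated, serotonin, cortisol and cortisol-serotonin arrays. Col3a1 went from -6.82 on the untreated to -4.82 on the serotonin array, and lay at -6.52 and -6.90 on the cortisol and cortisol-serotonin arrays. Dcn, the matrix proteoglycan decorin, was at -7.09, -6.60, -7.13 and -6.68, and the platelet-derived growth factor receptor gene Pdgfrb at -4.39, -3.69, -4.14 and -3.79. Dlk1, a pre-adipocyte surface protein, was at -3.02, -1.99, -2.74 and -2.59. The defining markers Col1a1, Pdgfra, Thy1 and Twist1 were not measured on all 4 arrays. Every measured marker lay far below the reference.

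In the first comparison, genes high in 3T3-L1 in general also had medians above 0. In the second only the group highest in 3T3-L1 did. Genes 1 to 2 and 2 to 4 log2 units higher in 3T3-L1 had medians of 0.0185 and 0.142 in the first comparison. Their medians in the second were -0.0595 and -0.0162. Among 175 genes more than 4 log2 units higher in 3T3-L1 than in RAW264.7, the median difference was 0.455 for serotonin minus untreated, 0.118 for cortisol-serotonin minus cortisol and 0.14 for cortisol minus untreated. Among 116 genes more than 4 log2 units lower in 3T3-L1, the same medians were -0.123, -0.0643 and 0.0048. The serotonin array thus had smaller contrasts between the lines, and it is also the array with the highest Cy5 signal. The part of 3T3-L1 RNA and of the Cy5 signal in the differences was not tested. It touches every gene that is higher in 3T3-L1 than in RAW264.7, Fstl1, Gpc1, Col3a1 and Fgfr1 among those named. Mean log2 ratios in 3T3-L1 and RAW264.7 were 4.42 and 0.42 for Wdr92, 1.34 and -3.14 for Cd93, and -0.08 and -2.75 for Flywch2. They were 0.69 and -2.07 for Tns2, 1.43 and -4.45 for C1s2, and 0.69 and -3.81 for Plcd1. Saa3, at a mean of -5.51 in RAW264.7, has no 3T3-L1 value here.

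**Figure D4:**
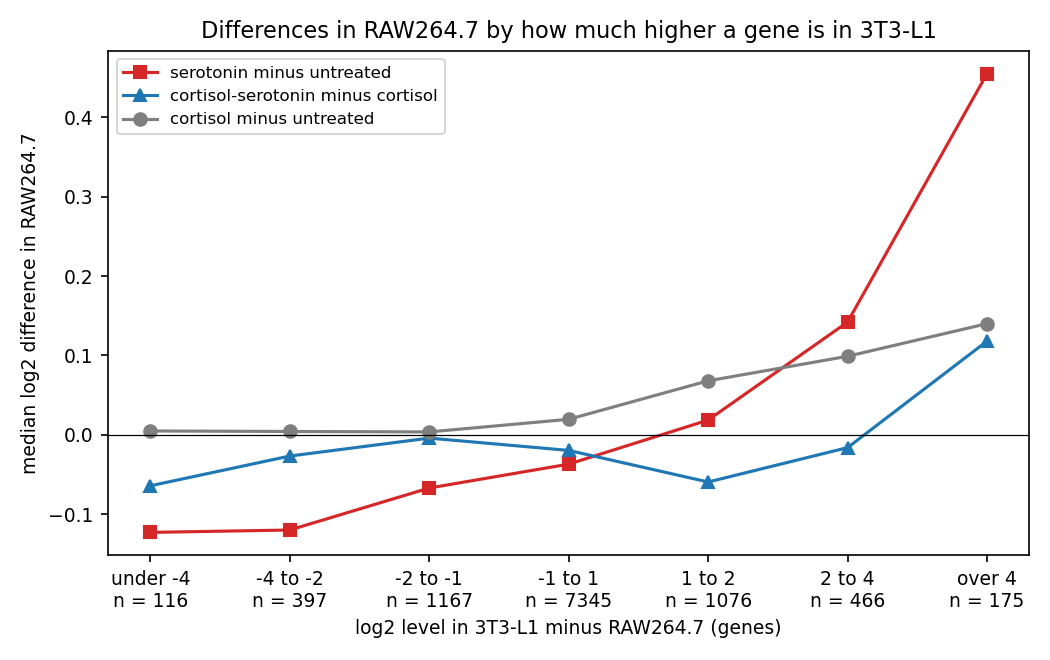
Genes are grouped on the x axis by their mean log2 ratio in 3T3-L1 minus that in RAW264.7, with the number in each group, and the y axis gives the median log2 difference between RAW264.7 arrays. The squares of serotonin minus untreated go from -0.123 to 0.455, while the triangles of cortisol-serotonin minus cortisol stay between -0.0643 and 0.118.

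Macrophage markers lay near 0 in the first comparison and below it in the second, and none passed the test. The 15 measured macrophage markers had medians of -0.0136 and -0.24, with 7 lower in both (46.7%, against 33.2% of all genes). Itgam, the CD11b integrin chain, was at 2.65 on the untreated, 2.28 on the serotonin, 2.25 on the cortisol and 1.60 on the cortisol-serotonin array. Ptprc, which encodes CD45, was at 1.15, 0.91, 1.23 and 0.69. Cathepsin S (Ctss) differed by -0.53 and -0.36. Among 36 myeloid receptor and signalling genes 18 were lower in both comparisons (50%, against 33.2% of all genes). Pira2 (-0.88 and -0.63) and Cd300c2 (-0.74 and -0.37) had the largest mean differences of these, and Clec4d (0.30 and 0.46) was higher.

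Chemokine ligand genes recruit leukocytes, and 13 of 31 were measured. Ccl2, the main monocyte attractant, was lower on both arrays labelled with serotonin: its log2 ratio was -1.77 on the untreated, -2.67 on the serotonin, -1.61 on the cortisol and -2.46 on the cortisol-serotonin array. Ccl4 stood at 0.67, 0.10, 1.49 and 0.64, with the untreated and cortisol-serotonin arrays almost level. Ccl9 was at 0.97, 0.41, 0.94 and 0.48 and Ccl6 at 1.13, 0.56, 1.28 and 1.02. The list as a whole did not share this direction: 6 of 13 were lower in both (46.2%, against 33.2% of all genes), 5 were higher in both (38.5%, against 19.4%), and the medians were -0.116 and -0.051. The median of the members' mean differences had the other sign, 0.0317, and was -0.0587 with median centring and -0.0395 with the Cy5 channel alone. Pf4, platelet factor 4, was higher (0.11 and 0.61).

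Among 17 cytokine and growth factor genes 10 were lower in both comparisons (58.8%, against 33.2% of all genes) and 2 were higher (11.8%, against 19.4%). Tnf had log2 ratios of 1.15 on the untreated, 0.70 on the serotonin, 1.28 on the cortisol and 1.21 on the cortisol-serotonin array. The serotonin array alone was lower, and the differences were -0.44 and -0.07. Tgfb1 was at 1.99, 1.62, 1.97 and 1.81, differences of -0.36 and -0.16 that are within the error of 0.41 that the scanner software gave each. Spp1, the gene of osteopontin, differed by -0.28 and -0.91, and Csf3, which encodes granulocyte colony-stimulating factor, by 0.35 and 0.64. Il6, Il1b and Il10 were not measured in both channels on all 4 arrays: Il6 was below the Cy5 background on each, Il10 was above it on 4 and Il1b on 3. Il12b was not analysed here.

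Acute-phase and complement genes were the other list with high medians, 0.478 and 0.221 over 8 measured genes of 34. The list was written with earlier results of these data known, and Saa3 and Lcn2, already named above, are among the 8. Of these 6 were higher in both (75%, against 19.4% of all genes) and 2 lower (25%, against 33.2%). Besides Saa3 and Lcn2, Slpi, a leukocyte protease inhibitor, differed by 0.94 and 0.32 and complement factor B (Cfb) by 0.50 and 0.19. C3ar1, the C3a receptor, differed by -0.81 and -0.17.

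Several metabolic and stress lists had medians of opposite sign in the comparisons. For glycolysis and hypoxia genes the medians were 0.131 and -0.3 (35 genes), for ATF4 and unfolded protein response genes 0.156 and -0.239 (43 genes), for MHC class II and antigen presentation 0.205 and -0.198 (10 genes), and for interferon-stimulated genes 0.161 and -0.104 (30 genes). Cholesterol and fatty acid synthesis genes were lower in both at the median, -0.101 and -0.173; 15 of 36 were lower in both (41.7%, against 33.2% of all genes) and 2 higher, and Scd1, the stearoyl-CoA desaturase, had the largest mean difference (-0.43 and -0.90). Of 51 lysosomal genes 24 were lower in both (47.1%, against 33.2% of all genes), with Ppt1 at -0.49 and -0.53. Cell cycle genes had medians of -0.0332 and -0.00645, and 16 of 50 were lower in both (32%). The 17 reference genes had medians of 0.0202 and -0.0652.

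Inflammatory target lists stayed near 0. The 26 TNF and NF-kB target genes had medians of 0.0365 and -0.0877, with Ripk2 (-0.32 and -0.64) and Tnip3 (-0.19 and -0.60) the largest. The 9 genes of classical activation had medians of 0.108 and 0.035, and the 13 of alternative activation -0.087 and 0.0953, where Arg1 was at -1.52 on the untreated, -0.88 on the serotonin, -0.30 on the cortisol and -0.36 on the cortisol-serotonin array. In the Toll-like receptor list Irak3, a negative regulator (1.15 and 0.26), and Tlr7 (-1.04 and 0.03) differed in the first comparison. For immediate-early genes the medians were -0.0252 and 0.121, for cAMP and CREB targets 0.0384 and 0.0373, for NRF2 genes 0.0756 and 0.0273, and for circadian clock genes 0.00303 and -0.143. Plau, the urokinase gene among the metalloproteinases and related proteases, was at 0.48, -0.90, 0.70 and 0.01 on the untreated, serotonin, cortisol and cortisol-serotonin arrays.

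**Figure D5:**
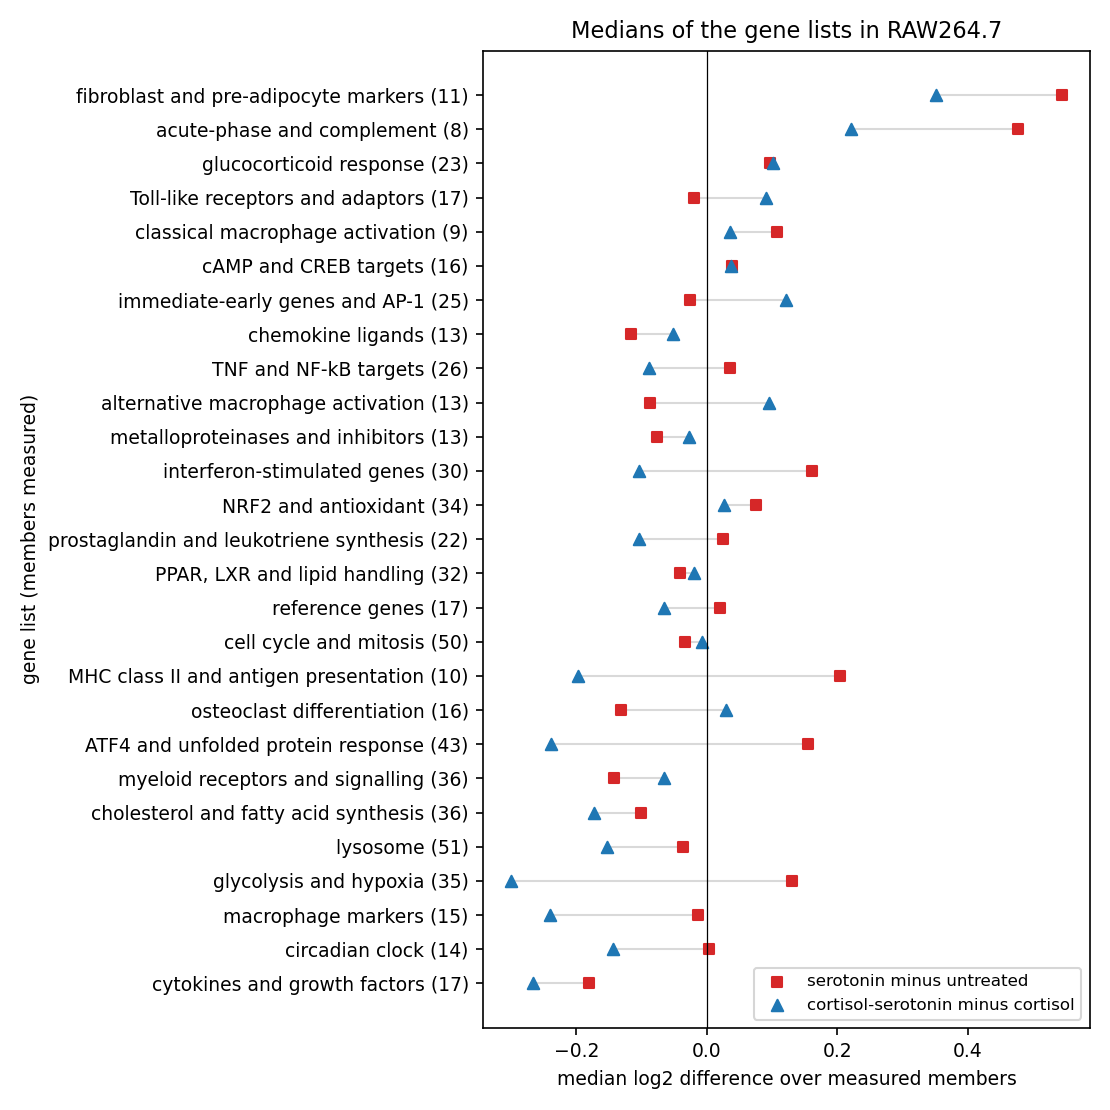
Median log2 difference of each gene list (x axis) over its measured members, whose number stands beside the name of the list (y axis); squares give serotonin minus untreated and triangles cortisol-serotonin minus cortisol. Fibroblast and pre-adipocyte markers (0.545 and 0.351) and acute-phase genes (0.478 and 0.221) lie to the right, while glycolysis (0.131 and -0.3) and ATF4 genes (0.156 and -0.239) lie on opposite sides of 0.

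The difference of the serotonin effect between RAW264.7 and 3T3-L1 was tested by limma on 10742 genes measured in both lines, and none passed an adjusted p of 0.05 (0%); 806 had an unadjusted p under 0.05 (7.5%). The smallest p-values belonged to Cyb561, Gpc1, Timp1, Nfam1, S100a8 and Csta3. For S100a8 the effect was 2.21 in RAW264.7 and 0.06 in 3T3-L1, a difference of 2.15 (SE 0.29, adjusted p = 0.203). Gpc1, a heparan sulphate proteoglycan, had 0.76 in RAW264.7 and -0.93 in 3T3-L1, and Csta3, a cysteine protease inhibitor, 0.62 and -0.79. In RAW264.7 the scanner software's errors for Csta3, 0.85 and 0.88, were larger than its differences of 0.65 and 0.58. For Cyb561, Timp1 and Nfam1 the larger effect was in 3T3-L1, at 2.01, -1.73 and -1.48, against -0.15, 0.31 and 0.07 in RAW264.7.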

How the data were processed

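Dual-colour Agilent arrays were deposited as 1 scanner file per sample; per the labels they were read with Agilent Feature Extraction 10.5.1.1, and the spot intensity in Cy5 and Cy3 is the deposited unit. The deposited series table holds the scanner software's log10 ratio to within 0.005 with a median of 0 on each array, and was used only for that check. Labels describe the Cy3 reference as a mix of all samples' RNA, whereas the methods describe pooled untreated cells grown alone. Median intensities were background-corrected (normexp, offset 50) and loess-normalised with limma 3.58.1 in R 4.3.3. Spots flagged as outliers were removed, spots of a probe averaged, and probes of a gene averaged if well above background in both channels on all 4 RAW264.7 arrays. Gene symbols came from RefSeq (GRCm38.p6): 27508 of 39429 probes matched 1, and others kept the array's name. The limma model had cell line, and cortisol and serotonin within line, and no interaction of the hormones. It left 2 residual degrees of freedom over 8 arrays for 10742 genes and 1 over 4 arrays for 1322 genes. Arrays, and the 28 gene lists, were chosen with earlier results of these data known. Genes named were those 2-fold in both comparisons, the 10 smallest p each way, the 5 largest in 1 comparison alone, the largest of each list, assayed cytokines, and 6 line differences. Alternatives covered scaling, background, filters, probes, fit and leaving out arrays. The number of arrays limits the precision. Csf1r and Adgre1 were named outside that rule. Code was tested on simulated data.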

Additional observations from a re-analysis of the deposited data

Results flagged for a closer look

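Gpc1 differed in direction between the lines. In RAW264.7 its log2 ratio was -4.89 on the untreated, -4.12 on the serotonin, -4.90 on the cortisol and -4.16 on the cortisol-serotonin array, a mean difference of 0.76. In 3T3-L1 both comparisons gave -0.93. Both arrays of each line moved one way, by at least 1.5-fold. The limma test of the difference between the lines gave 1.69 (SE 0.19, adjusted p = 0.176), so the difference did not pass. The scanner software's error on each RAW264.7 difference was 0.68, near the size of the difference itself.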

How the results depend on the processing

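The direction of the limma effect was kept under every alternative run for 31 of 32 named genes, the exception being Tns2, at -0.156 with the Cy5 channel alone. Most of the 32 were picked by small p or by a 2-fold difference in both comparisons. Leaving out a RAW264.7 array leaves 1 comparison, and leaving out a 3T3-L1 array does not change the RAW264.7 effect. Those runs could not turn a gene whose comparisons share a sign. Genes named for 1 comparison alone were not among the 32. Among them, the Cy5 channel alone turned Dpys (-0.608 for cortisol-serotonin minus cortisol) and Col3a1 (-0.557), Fgfr1 (-0.235) and Plcd1 (-0.262) for serotonin minus untreated. It turned Mcidas too, which was just under 2-fold lower (1.03 for cortisol-serotonin minus cortisol), and took the effect of Flywch2 to 0.235. The correlation of the comparisons was -0.105 with Cy5 alone, -0.00371 with median centring, -0.0102 with no filter on dim probes and 0.126 with processed signals. Counts are given next in the order higher and lower for serotonin minus untreated, higher and lower for cortisol-serotonin minus cortisol, and higher and lower in both. A 1.5-fold threshold gave 214, 219, 129, 150, 26 and 19, and Cy5 alone 269, 699, 667, 217, 49 and 18. No filter gave 237, 152, 84, 79, 11 and 2, and processed signals 118, 231, 70, 24, 17 and 3. A normexp offset of 0 gave 107, 74, 52 and 17, with 14 higher in both. Median centring gave 12 lower for cortisol-serotonin minus cortisol and 3 lower in both, no background correction gave 8 higher in both, and a filter on Cy5 alone gave 49 lower for serotonin minus untreated. S100a8 and Saa3 stayed 2-fold in both comparisons in 8 of 8 settings, Cited1 and Cd5 in 7 and Flywch2 in 6. The cause of these changes was not tested.

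The limma calls numbered 2 with median centring (S100a8, adjusted p = 8.54e-06, and Hap1, adjusted p = 0.0057) and 2 without the cortisol term (Cited1, adjusted p = 0.0482, and S100a8, adjusted p = 0.0499). They ranged from 0 to 55 when 1 array was left out, with 55 without the RAW264.7 cortisol or cortisol-serotonin array, 7 without the untreated or serotonin array and 0 without any 3T3-L1 array. Calls for the difference between the lines numbered 23 with median centring and 3 with no filter, and ranged from 0 to 36 when 1 array was left out. Without a RAW264.7 array the error comes from the 3T3-L1 arrays alone, and the lone arrays are assumed to vary like those. No paired analysis was possible because each condition was 1 array per line, so that replicate numbers pair fewer than 2 samples of any groups; the cortisol term of the model already sets each serotonin array against the array with the same cortisol label. The precision is also limited for genes far from the reference: the error exceeded both differences of Fstl1, far below it, and of Csta3, far above it.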

Other observations

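Genes below the Cy5 background on one side have only a bound. On both arrays without serotonin 179 genes were not well above background while both serotonin arrays were, and 8 of these were at least 2-fold higher. Of the 179, 110 were among the 20886 genes with a RefSeq symbol. These genes were picked by being bright on the serotonin arrays, so their direction is no separate result. Phax, an adaptor for export of small nuclear RNA, was at least 3.49-fold higher, Ntm at least 2.74-fold and Cox10, a haem synthesis enzyme, at least 2.02-fold. Plin1, the perilipin of fat cell lipid droplets, was at least 1.94-fold higher. In the other direction 164 genes were not well above background on both serotonin arrays, 2 of them at least 2-fold lower. Of the 164, 90 were among the 20886 with a symbol. The 2 were Olfr851 (at least 2.82-fold) and NAP113132-1, which has no gene name (at least 2.79-fold). Each bound sets the mean of the bright arrays against the higher of the dim probe's own signal and the lowest signal called well above background, after loess and Aquantile scaling of the channels, and without dye swaps it is open to dye bias. The serotonin array had more probes above the Cy5 background than the others, 57.46% against 47.95% to 49.84%. Since each bound is a mean over both bright arrays, a rise on the serotonin array alone cannot be told apart.

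An unnamed probe, A_55_P2097820, was the single feature with 2-fold differences in opposite directions, 1.77 for serotonin minus untreated and -1.83 for cortisol-serotonin minus cortisol.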
